A study of Homo sapiens with 12 samples.

Results

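The miR-30 family was followed through the 4 groups of a SOX2 knock-down experiment in human embryonal carcinoma cells. Its members were the assays of the dCt table whose name carries the number 30 and no star, which gave 6 of 501 assays: hsa-miR-30b and hsa-miR-30c on card A, and hsa-miR-30a-5p, hsa-miR-30a-3p, hsa-miR-30d and hsa-miR-30e-3p on card B, named below without the prefix for human. All 6 were measured in all 12 samples. Assays for 2 star strands, miR-30c-1* and miR-30d*, were read in NTera-2 cells only and are described beside the members.

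Cells of 2 lines, NTera-2 and 2102Ep, received either an siRNA against SOX2 (siSOX2) or a non-targeting siRNA (NC), which gave 4 groups with 3 samples each that the labels call biological replicates. Both are established embryonal carcinoma lines without any engineered allele, NTera-2 being pluripotent and 2102Ep being called nullipotent because it resists retinoic acid, and each stands for 1 tumour line only. All cells, controls included, went through a transfection of 6 h, with 30 nM siRNA in NTera-2 and 15 nM in 2102Ep cells and with a different Lipofectamine reagent in each, and were kept for 72 h more, so line, reagent and dose cannot be told apart in a comparison of the lines. SOX2 mRNA was not read on these cards, and its knock-down was therefore not checked here. The study reports a weaker knock-down of the mRNA in the pluripotent line than in the nullipotent line, with the protein undetected in both. The depth of the mRNA knock-down therefore cannot be told apart from line, reagent and dose in a comparison of the lines. In these samples fewer cells of a type and less RNA per cell cannot be told apart.

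MiRNAs are short RNAs that pair through their seed, bases 2 to 8 from the 5′ end, with messenger RNAs and lower their output. A hairpin precursor can give a mature RNA from either arm, named 5p and 3p, and the older star names mark the arm thought to be the minor one. The 5p arms of the miR-30 family share 1 seed. They are known from kidney and other epithelia, and miR-30 members are known to repress SNAI1 and other drivers of the epithelial-to-mesenchymal transition (EMT), in which epithelial cells become mobile. An assay named without an arm (miR-30b, miR-30c, miR-30d) reads the 5p RNA.

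RefSeq sequences (build GRCh38.p14) were at hand for 4 of the 6 members and for miR-30c-1*. They are shown because the family name covers RNAs with different seeds. The seed is in capitals.

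miR-30a-5p: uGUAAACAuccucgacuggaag

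miR-30c: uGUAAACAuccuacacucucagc

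miR-30a-3p: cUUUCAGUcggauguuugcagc

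miR-30e-3p: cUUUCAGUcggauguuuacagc

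miR-30c-1*: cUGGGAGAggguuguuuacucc

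The 5p RNAs miR-30a-5p and miR-30c carry the seed GUAAACA and share their first 12 bases, after which they differ at 5 of the 22 positions compared. The 3p RNAs miR-30a-3p and miR-30e-3p carry a different seed, UUUCAGU, and are the same at 21 of 22 positions, with G18A as the only substitution (miR-30a-3p first, positions counted from the 5′ end). How far the assay of either one reads the other was not tested. The star strand miR-30c-1* has yet another seed, UGGGAGA.

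MiR-30a-5p (chr6:71403595-71403616) and miR-30a-3p (chr6:71403554-71403575) are the arms of 1 precursor, MIR30A, on the minus strand. MiR-30c comes from 2 genes, MIR30C2 (mature RNA at chr6:71377003-71377025, minus strand) and MIR30C1 (chr1:40757300-40757322, plus strand), with the same mature sequence, and 1 assay reads the sum. MIR30C2 lies 26519 bases from MIR30A, and MIR30C1 lies 2837 bases from MIR30E, which gives miR-30e-3p (chr1:40754413-40754434, plus strand). MiR-30c-1* lies at chr1:40757339-40757360.

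A Ct is the PCR cycle at which an assay's signal crosses a threshold, so a lower Ct means more RNA, and a step of 1 cycle corresponds to roughly 1 log2 unit. The authors' dCt is the raw Ct minus a constant per sample and card. On card A it was the average of miR-16 and U6 in either line. On card B its make-up was not established, and it was 24.3 to 25.0 in 2102Ep and 16.3 to 16.9 in NTera-2 samples. The dCt values were therefore compared only within a line. Between 421 and 451 assays were measured in a sample, and the median SD of the dCt over 3 replicates was between 0.31 and 0.44 cycles in the 4 groups. The embryonal carcinoma markers miR-302a to miR-302d, miR-367, miR-371-3p, miR-372 and miR-373 were measured in every group (8 of 8), at group mean Ct values of 13.9 to 26.1. Of 7 markers of blood, muscle and liver, miR-223, miR-142-3p, miR-133a and miR-206 were measured, at group means of 21.1 to 29.8, and the other three were not analysed here.

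The first question was what loss of SOX2 did to the family in 2102Ep cells. In this line miR-30d rose 5.02-fold, and it was the only one of the 6 members to pass an adjusted p of 0.05, whereas 14.6% of the 432 assays tested passed and 4.63% passed in the upward direction. MiR-30d ranked 4 among all assays by the size of its rise. The 3p strand miR-30a-3p lay 2.19-fold higher and did not pass, and the changes of miR-30a-5p, miR-30b, miR-30c and miR-30e-3p were between -0.43 and 0.22 on the log2 scale.

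MiR-30d, which is made beside miR-30b from 1 gene cluster and is known as a regulator of invasion in several tumours, had a dCt of 1.23, 1.57 and 1.48 in 2102Ep siSOX2 cells, against 3.05, 3.58 and 4.65 in 2102Ep NC cells. The siSOX2 samples lay close together and below every NC sample. The log2 fold change, siSOX2 over NC, was 2.33 (SE 0.45, 95% confidence interval 1.32 to 3.33), with an adjusted p of 0.0067 by limma. The assay was weak in this line, with raw Ct values of 25.9 to 26.3 in siSOX2 and 27.8 to 29.0 in NC cells, and the SD of the dCt was 0.18 in siSOX2 and 0.82 in NC cells. The call was lost in a test that takes the spread from the assay alone, without sharing it across assays. In that test 8 of 432 assays passed, against 63 by limma. The direction was upward in all 15 alternatives, with values of 1.88 to 2.88. Several of these alternatives alter only the spread or the set of assays and keep the value at 2.33, so the direction could not change in them.

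MiR-30a-3p had a dCt of -1.10, -0.74 and -0.09 in 2102Ep siSOX2 cells, against 0.61, 0.23 and 0.62 in 2102Ep NC cells. The groups did not overlap, with siSOX2 replicate 3 nearest to the controls. The log2 fold change was 1.13 (SE 0.41, interval 0.22 to 2.04), and its adjusted p was 0.097 by limma. When RNU44 and RNU48 were taken as reference RNAs, the value was 1.68 with an adjusted p of 0.010 by limma. These small nucleolar RNAs themselves differed between the groups: on card B their Ct was 17.7 ± 0.26 and 18.8 ± 0.23 in siSOX2 cells, against 16.9 ± 0.085 and 18.1 ± 0.064 in NC cells (SD, n = 3 each), and under them the median log2 fold change of all assays was 0.43, where it was -0.00 with the authors' constants. Their part in the result was not tested.

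MiR-30c, whose repression of EMT genes was of interest to the study, had a dCt of 2.56, 2.40 and 2.50 in 2102Ep siSOX2 cells, against 2.19, 2.23 and 2.15 in 2102Ep NC cells. All siSOX2 samples were above all NC samples, that is, held less miR-30c, by a small margin. The log2 fold change was -0.29 (SE 0.19, interval -0.71 to 0.12), with an adjusted p of 0.38 by limma. With RNU44 and RNU48 as reference it was 0.06. The SD of the dCt was 0.08 in 2102Ep siSOX2 and 0.04 in 2102Ep NC cells. The unequal-variance test takes the spread from the assay alone. In it, 95 of 432 assays had an unadjusted p of 0.05 or less, and miR-30c was 1 of 3 members among them. The adjusted p of miR-30c in that test was 0.12. The study counts miR-30c as downregulated in this line at its own limit on the P-value. Why these calls differ was not tested.

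MiR-30b, a close sequence relative of miR-30c that is read on the same card, had a dCt of 3.44, 3.01 and 3.54 in siSOX2 and of 2.68, 3.13 and 2.89 in NC cells of 2102Ep. The groups overlapped through 1 sample of each. Its log2 fold change was -0.43 (SE 0.21, interval -0.90 to 0.04).

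MiR-30a-5p, the other arm of the miR-30a hairpin, had a dCt of -1.11, -1.15 and -0.78 in 2102Ep siSOX2 cells and of -0.99, -1.0 and -1.21 in 2102Ep NC cells. Its log2 fold change of -0.05 (interval -0.49 to 0.38) was smaller than the spread between replicates. MiR-30e-3p, which shares a seed with miR-30a-3p, had a log2 fold change of 0.22 (interval -0.31 to 0.75) with overlapping groups. In all, the groups did not overlap for 3 of the 6 members, set beside 31.9% of all assays.

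**Figure D1:**
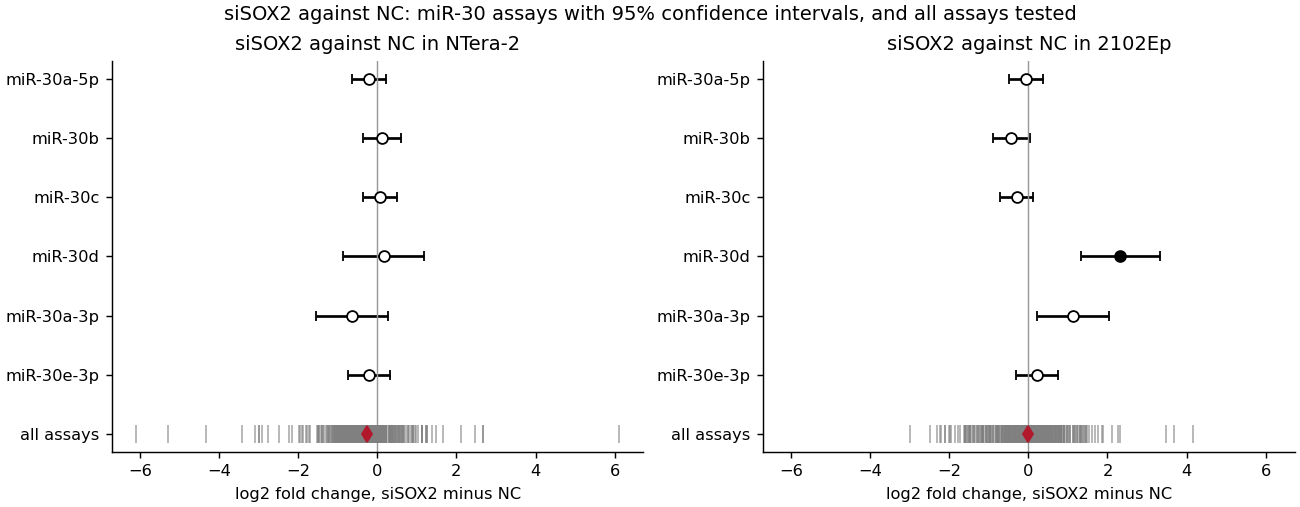
Log2 fold change of siSOX2 over NC for the 6 miR-30 assays in NTera-2 (left) and 2102Ep cells (right), on the horizontal axis, from minus dCt with 3 samples per group. Circles are estimates, bars 95% confidence intervals, and a filled circle marks an adjusted p under 0.05; grey ticks in the lowest row are all assays tested and the red diamond is their median, -0.27 in NTera-2 and -0.00 in 2102Ep. MiR-30d in 2102Ep, at 2.33, carries the only filled circle.

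**Figure D2:**
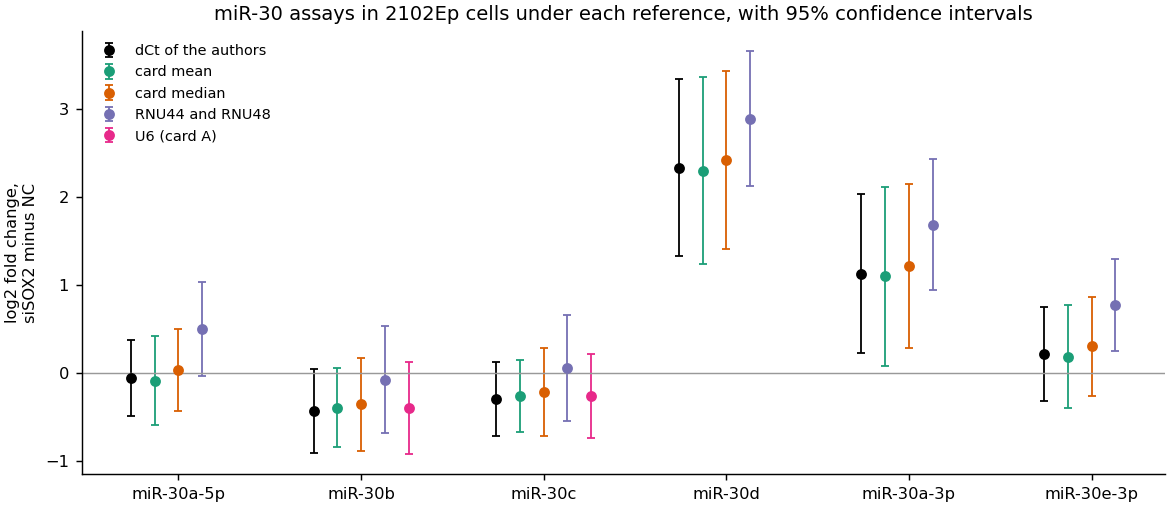
Log2 fold change of siSOX2 over NC in 2102Ep cells (vertical axis) for each miR-30 assay under 5 choices of reference, with 95% confidence intervals. MiR-30d lies between 2.30 and 2.88 under the 4 references of card B; miR-30a-3p lies between 1.10 and 1.68; U6 could be used for the 2 assays of card A only.

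In NTera-2 cells none of the 6 members passed, where 5.54% of 451 assays did. None had an unadjusted p of 0.05 or less in limma, where 21.7% of all assays did. In the test of each assay alone none did either, where 63 of 451 assays did. The fold changes were between -0.64 for miR-30a-3p and 0.16 for miR-30d on the log2 scale, around a median of -0.06 for the family and of -0.27 for all assays. With each sample's card mean as reference these medians were 0.30 and 0.06, so the direction of small changes in this line depended on the reference.

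MiR-30d had a dCt of 8.97, 9.20 and 8.54 in NTera-2 siSOX2 cells and of 9.79, 8.23 and 9.16 in NTera-2 NC cells. The siSOX2 samples fell within the range of the NC samples. The log2 fold change was 0.16 (SE 0.46, interval -0.86 to 1.18), with an adjusted p of 0.91 by limma. An increase of the size seen in 2102Ep lies outside this interval, but a difference between the lines needs its own test.

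MiR-30a-3p had a dCt of 6.66, 6.96 and 7.99 in NTera-2 siSOX2 cells and of 7.12, 5.97 and 6.61 in NTera-2 NC cells. Replicate 3 of siSOX2 was the highest and replicate 2 of NC the lowest, and the groups overlapped. The log2 fold change was -0.64 (SE 0.41, interval -1.56 to 0.28). NC replicate 2 had the lowest dCt of its group in 7 of the 8 miR-30 assays read in NTera-2 cells, star strands included. How often this sample was lowest over all assays was not counted. Assays of 1 card share 1 constant per sample, so they are not separate observations of it.

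On card A, miR-30c had a dCt of 4.57, 4.02 and 4.21 in NTera-2 siSOX2 cells and of 4.47, 4.20 and 4.35 in NTera-2 NC cells, with overlapping groups and a log2 fold change of 0.07 (interval -0.35 to 0.49). For miR-30b it was 0.12 (interval -0.36 to 0.60). MiR-30a-5p and miR-30e-3p both had a log2 fold change of -0.20, with intervals of -0.64 to 0.23 and -0.74 to 0.33. Only miR-30a-5p had groups that did not overlap, at a dCt of 8.07, 8.15 and 8.06 in siSOX2 cells against 8.05, 7.60 and 8.03 in NC cells, where 29.0% of all assays had such groups.

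The star strand of the miR-30c-1 hairpin, miR-30c-1*, had a dCt of 12.45, 12.04 and 12.70 in NTera-2 siSOX2 cells, against 11.27, 11.88 and 11.94 in NTera-2 NC cells. All siSOX2 samples held less of it than all NC samples. The log2 fold change was -0.70 (SE 0.30, interval -1.42 to 0.03), with an adjusted p of 0.25 by limma, and it was -0.19 against the card mean. MiR-30d* had a dCt of 7.29, 8.0 and 8.30 in siSOX2 and of 8.36, 6.71 and 8.32 in NC cells, with a log2 fold change of -0.07 (interval -1.38 to 1.24).

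Whether SOX2 knock-down acted differently in the lines was asked with the difference of the log2 fold changes, NTera-2 minus 2102Ep. No member passed, where 6.23% of 385 assays did. The difference was -2.17 for miR-30d (SE 0.64, interval -3.58 to -0.76, adjusted p = 0.073 by limma) and -1.77 for miR-30a-3p (SE 0.58, interval -3.04 to -0.49, adjusted p = 0.087 by limma). Both had an unadjusted p of 0.05 or less, as did 22.6% of all assays. Both passed with RNU44 and RNU48 as reference, at -2.66 and -2.25. Under that reference the median difference of all assays was -0.74, where it was -0.27 in the main fit. With RNU44 and RNU48, 41 of 385 assays passed, 38 of them lower, against 24 in the main fit. Without NTera-2 NC replicate 1 the difference for miR-30d was -2.54 and passed (adjusted p = 0.047 by limma). For the other 4 members the difference was between -0.42 and 0.55.

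The raw Ct of assays on 1 card can be set against each other within a sample, and no reference RNA then enters. The 7 pairs of members that share a card were compared in 4 ways, which gave 28 comparisons chosen after the values were seen. With 3 samples against 3, the smallest p that an exact permutation test can give is 0.1, and 13 of the 28 comparisons reached it, so no pair could pass at 0.05. A Ct gap does not give the ratio of 2 RNAs, since assays differ in efficiency, but its change between groups can be read.

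The arms of the miR-30a hairpin did not keep 1 distance in 2102Ep cells. The Ct of miR-30a-3p minus that of miR-30a-5p was 0.0017, 0.41 and 0.69 cycles in 2102Ep siSOX2 samples, against 1.59, 1.23 and 1.83 in 2102Ep NC samples. The groups did not overlap, and the mean gap was 1.18 cycles smaller with siSOX2 (exact permutation p = 0.1, two-sided). In NTera-2 samples the gap was -1.42, -1.19 and -0.07 with siSOX2 and -0.92, -1.63 and -1.42 with NC, with overlapping groups. The sign was therefore opposite in the lines: miR-30a-3p had the lower Ct of the arms in all 6 NTera-2 samples and the higher Ct in all 6 samples of 2102Ep.

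The gap of miR-30a-3p to miR-30e-3p, its near twin in sequence, was likewise smaller with siSOX2 in 2102Ep cells. It was 0.44, 0.40 and 0.63 cycles in 2102Ep siSOX2 samples, against 1.34, 1.35 and 1.52 in 2102Ep NC samples. The groups were apart by more than their spread, with means of 0.49 ± 0.12 and 1.40 ± 0.099 (SD, n = 3 each, exact permutation p = 0.1). In NTera-2 cells the groups overlapped, with means of 1.68 ± 0.73 in siSOX2 and 1.24 ± 0.36 in NC samples (SD, n = 3 each, exact permutation p = 0.6).

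The gap of miR-30d to each other member of its card was smaller with siSOX2 in 2102Ep cells. Its Ct minus that of miR-30e-3p was 2.56 ± 0.32 in siSOX2 and 4.68 ± 0.89 in NC cells, and the Ct of miR-30a-5p minus that of miR-30d was -2.44 ± 0.24 in siSOX2 and -4.82 ± 0.94 in NC cells (SD, n = 3 each). The Ct of miR-30a-3p minus that of miR-30d was -2.07 ± 0.43 in siSOX2 and -3.27 ± 0.80 in NC cells. In each of these 3 pairs the groups did not overlap.

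MiR-30b and miR-30c kept their distance in all 4 groups. The Ct of miR-30b minus that of miR-30c was 0.58 ± 0.15 in NTera-2 siSOX2, 0.63 ± 0.17 in NTera-2 NC, 0.85 ± 0.21 in 2102Ep siSOX2 and 0.71 ± 0.20 in 2102Ep NC cells (SD, n = 3 each). Over all 12 samples the gap ran from 0.41 to 1.03 cycles, a range of 0.62, where the other 6 pairs had ranges of 2.07 to 5.38.

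**Figure D3:**
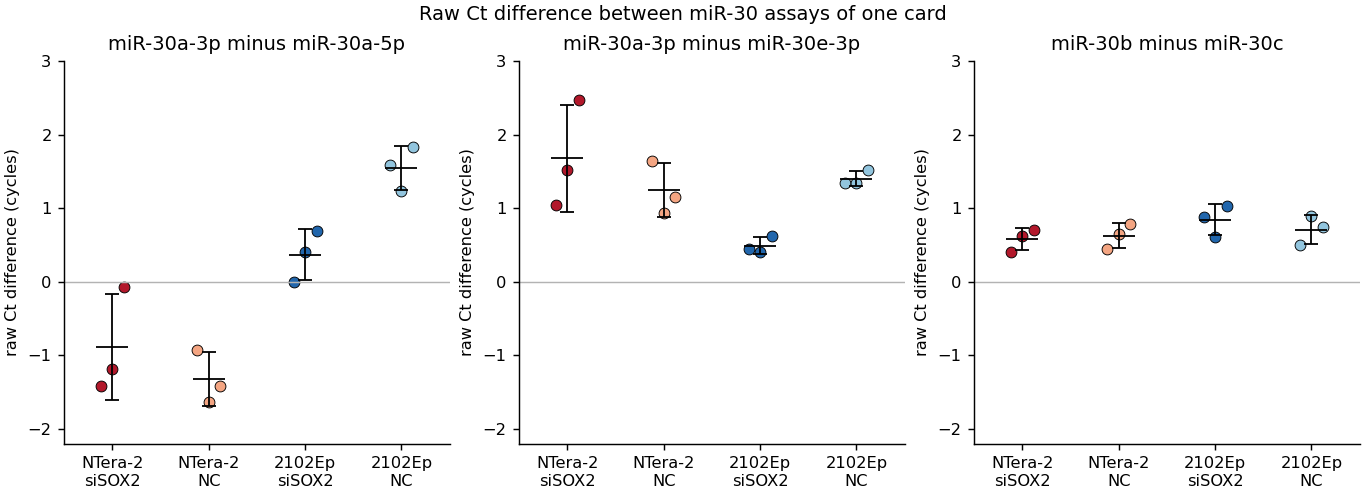
Raw Ct difference in cycles (vertical axis) between 2 miR-30 assays of the same card in each sample, by group, with points for samples and bars for the mean and SD (n = 3). The gap of the miR-30a arms runs from -1.63 to 1.83 over the 12 samples and that of miR-30b and miR-30c from 0.41 to 1.03.

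To give each member a level in all 4 groups on 1 scale, minus raw Ct was set against the mean of the same card over the assays measured in all 12 samples (224 on card A and 146 on card B). On this log2 scale a member's groups can be compared, but not 1 member's level with another's. Of the undifferentiated cells, NTera-2 NC held more of 5 members than 2102Ep NC and less of 1, and all 6 passed, where 77.5% of 386 assays did, 40.4% higher and 37.0% lower. The groups did not overlap for any of the 6, as for 78.0% of all assays. The family's median difference was 1.85, and that of all assays was 0.17.

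The largest of these differences was that of miR-30d, with levels of -2.14, -0.34 and -1.53 in NTera-2 NC cells, against -3.60, -4.27 and -5.32 in 2102Ep NC cells. The groups were apart by more than 1 unit. NTera-2 NC cells held 8.32-fold more, a log2 difference of 3.06 (SE 0.48, interval 2.00 to 4.11, adjusted p = 1.45e-04 by limma). In the siSOX2 samples the level of miR-30d was -0.75, -0.77 and -0.51 in NTera-2, against -1.97, -2.21 and -2.11 in 2102Ep cells. There the difference was 1.42 (SE 0.48, interval 0.37 to 2.48, adjusted p = 0.019 by limma). That call was lost with the card median as reference, at 0.84, and without NTera-2 siSOX2 replicate 3, at 1.34 (adjusted p = 0.052 by limma).

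MiR-30b and miR-30c, the members of card A, were higher in NTera-2 cells under both siRNAs. MiR-30b had levels of 5.02, 5.15 and 4.81 in NTera-2 siSOX2, against 2.50, 2.95 and 2.60 in 2102Ep siSOX2 cells, and of 4.79, 4.75 and 4.40 in NTera-2 NC, against 3.15, 3.03 and 3.05 in 2102Ep NC cells. No sample of either line reached the other. The log2 difference was 2.31 (SE 0.20) in siSOX2 and 1.57 (SE 0.20) in NC cells. For miR-30c it was 2.05 (SE 0.18) in siSOX2 and 1.49 (SE 0.18) in NC cells, or 4.13-fold and 2.81-fold.

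MiR-30e-3p had levels of 2.60, 2.99 and 2.51 in NTera-2 siSOX2, against 0.80, 0.50 and 0.09 in 2102Ep siSOX2 cells, and of 2.17, 2.86 and 2.17 in NTera-2 NC, against 0.19, 0.43 and 0.23 in 2102Ep NC cells. The lines did not overlap under either siRNA, with log2 differences of 2.24 (SE 0.26) in siSOX2 and 2.12 (SE 0.26) in NC cells.

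The arms of miR-30a took opposite signs between the lines. MiR-30a-3p had levels of 0.53, 1.92 and 1.02 in NTera-2 NC cells, against -1.16, -0.92 and -1.29 in 2102Ep NC cells, a difference of 2.28 (SE 0.46, adjusted p = 9.08e-04 by limma). MiR-30a-5p had levels of -0.40, 0.29 and -0.40 in NTera-2 NC cells, against 0.44, 0.31 and 0.54 in 2102Ep NC cells, a difference of -0.60 (SE 0.23, adjusted p = 0.032 by limma). The 3p arm was higher in every NTera-2 NC sample and the 5p arm lower, though for the 5p arm the nearest samples of the lines lay at 0.29 and 0.31. The call for miR-30a-5p was lost without 2102Ep NC replicate 1 or 3 and without NTera-2 NC replicate 1 or 3, at -0.59, -0.54, -0.48 and -0.48.

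In the siSOX2 samples neither arm of miR-30a passed. MiR-30a-3p had levels of 1.56, 1.47 and 0.04 in NTera-2, against 0.36, 0.10 and -0.54 in 2102Ep cells, with overlap through NTera-2 replicate 3. Its difference was 1.05 (SE 0.46, adjusted p = 0.056 by limma), and without that sample it was 1.54 and passed (adjusted p = 0.0061 by limma). MiR-30a-5p differed by -0.21 (SE 0.23), with overlapping samples. In all, 4 of 6 members passed between the siSOX2 groups, all of them higher in NTera-2 cells, where 74.3% of 385 assays passed and 41.8% passed upward. The same 4 had groups without overlap, as did 79.0% of all assays.

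The order of the 4 groups thus differed from member to member. MiR-30b and miR-30c ran from 2102Ep siSOX2 over 2102Ep NC and NTera-2 NC to NTera-2 siSOX2, with no overlap between neighbours on the scale set against the card mean. On the dCt the siSOX2 and NC samples of miR-30b overlapped in both lines and those of miR-30c in NTera-2 cells, and neither miRNA passed the test within a line. MiR-30d was lowest in 2102Ep NC, then came 2102Ep siSOX2, then NTera-2 NC, and NTera-2 siSOX2 was highest (means of -4.39, -2.10, -1.34 and -0.68), and only the first step was free of overlap. MiR-30e-3p took the same order with means of 0.28, 0.47, 2.40 and 2.70, and only its second step, between the lines, was free of overlap. MiR-30a-3p ran from 2102Ep NC, at -1.12, to 2102Ep siSOX2, at -0.03, then NTera-2 siSOX2 and NTera-2 NC, at 1.02 and 1.16, with only the first step free of overlap. For miR-30a-5p every pair of neighbours overlapped.

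**Figure D4:**
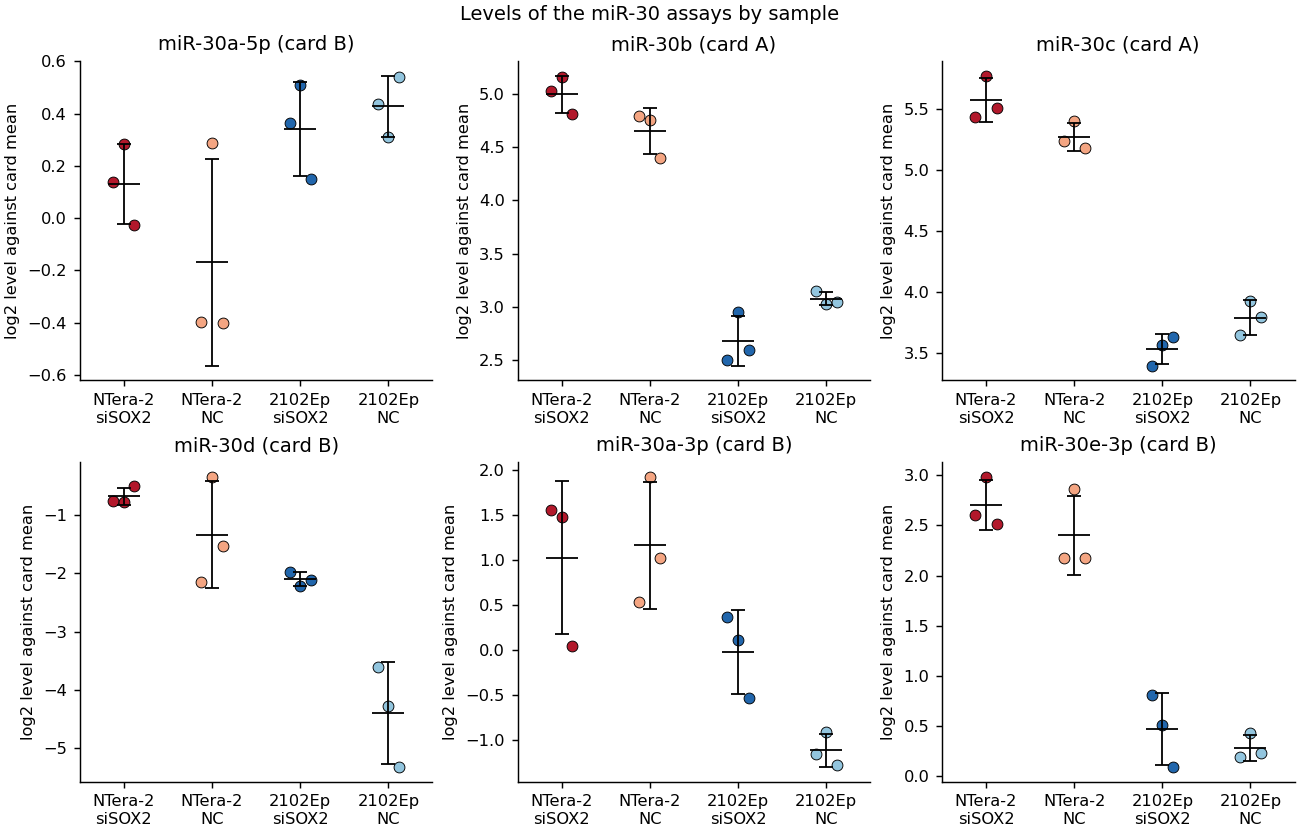
Log2 level of each miR-30 assay against the mean of its card (vertical axis, a separate range in each panel) in the 12 samples, by group, with points for samples and bars for the mean and SD (n = 3). MiR-30b, miR-30c and miR-30e-3p part the lines without overlap, miR-30d is lowest in 2102Ep NC (mean -4.39), and miR-30a-5p runs the other way, with its lowest mean of -0.17 in NTera-2 NC.

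**Figure D5:**
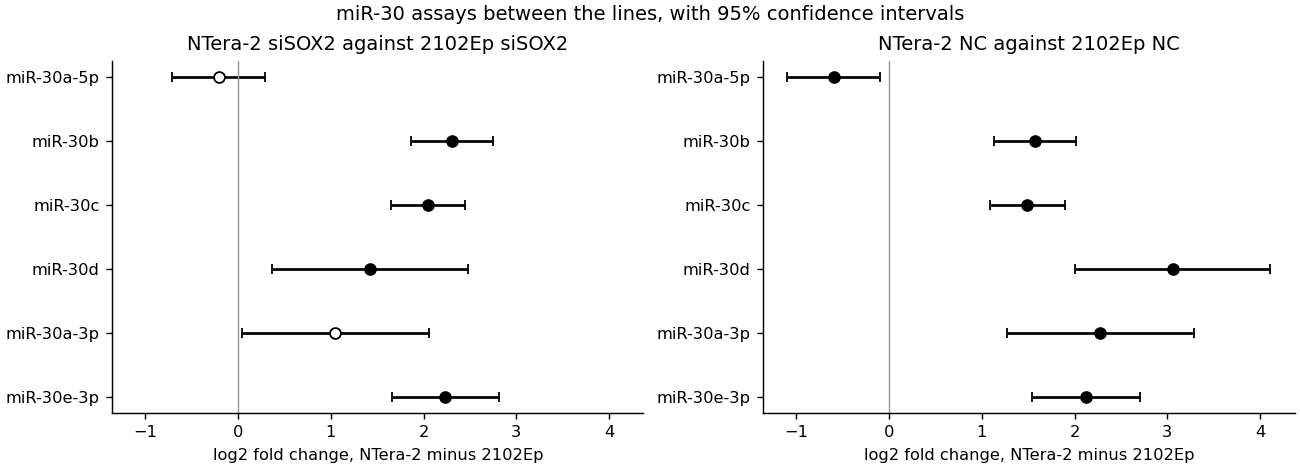
Log2 fold change of NTera-2 over 2102Ep for the 6 miR-30 assays in siSOX2 (left) and NC samples (right), on the horizontal axis, with 95% confidence intervals (3 samples per group). Filled circles mark an adjusted p under 0.05, 4 in siSOX2 and 6 in NC samples; miR-30a-5p lies below 0 in both, at -0.21 and -0.60.

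The likeness of other assays to a member was measured by Pearson's r of the level over the 12 samples, among 370 assays measured in all of them. The samples form 2 lines and share the card means, so r describes mainly the step between the lines, and it is given without a test. For miR-30c the closest were miR-20a* (0.99), miR-92a (0.99) and miR-296 (0.99), and for miR-30b miR-211 (0.99), miR-20a (0.98) and miR-20a* (0.98), where miR-20a and miR-92a are members of the miR-17-92 cluster. MiR-30e-3p was closest to miR-342-3p (0.99), miR-720 (0.99) and miR-302d (0.99). MiR-30d was closest to miR-26b* (0.96), miR-139-5p (0.94) and miR-328 (0.94), and miR-30a-3p to miR-301 (0.90), miR-26b* (0.90) and miR-15b (0.88). MiR-30a-5p had other neighbours, mmu-miR-495 (0.90), miR-548d (0.89) and miR-409-3p (0.87), and its r with the 5 other members was between -0.58 and -0.37. Among those 5, r was between 0.67 and 0.99.

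The other miRNAs that the study sets beside miR-30c and miR-30d were chosen by it on these same samples, so their direction is not independent evidence. Beside miR-30c stand 9 miRNAs, miR-26a, miR-148a, miR-200b and miR-28, and 5 of the primate-specific C19MC cluster, which were added to the list after their values were seen. In 2102Ep cells miR-148a (log2 fold change -1.86) and miR-26a (-0.79) fell, miR-28 (0.78) rose, and miR-200b was at -0.57 and did not pass. Of the cluster members miR-518c (-1.74), miR-518b (-1.04) and miR-518f (-0.90) fell, and miR-518a-3p, at -1.30, and miR-517b, at -0.95, did not pass. In all, 5 of the 9 fell and 1 rose, where 43 of all 432 assays tested passed downward and 20 upward. Beside miR-30d stand miR-424, miR-27b, miR-28, miR-149 and miR-331, of which 4 of 5 rose in 2102Ep cells, from 0.63 for miR-149 to 1.52 for miR-424, and miR-331 was at 0.39. In NTera-2 cells none of either group passed, with 8 of the 9 beside miR-30c tested. Under the card median 3 of the 9 companions of miR-30c and 3 of the 5 companions of miR-30d passed in 2102Ep cells. Of all assays, 52 of 432 passed under it.

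Of the miRNAs that hold back EMT in epithelia, miR-200a, miR-200b, miR-200c, miR-141, miR-429, miR-205 and miR-203, none passed with siSOX2 in either line (6 tested in 2102Ep, with a median of -0.18, and 7 in NTera-2, with a median of -0.66). Between the undifferentiated lines all 6 of these epithelial miRNAs that were tested passed as lower in NTera-2 cells, where 37.0% of 386 assays did. Their median was -3.45, where the miR-30 family had its median of 1.85 and all assays had 0.17.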

How the data were processed

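RNA of 12 samples was reverse transcribed with Megaplex primers, pre-amplified and run on TaqMan array cards A and B. The authors deposited raw Ct values (log2 scale, 1 cycle being about 1 unit, not normalised) and dCt values (log2 scale, raw Ct minus a constant per sample and card), exported with DataAssist. Another deposited table, with the authors' fold changes and p-values, was not used. Groups were taken from the labels. The members and lists were chosen with earlier results of these data known.

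Raw Ct minus dCt equalled 1 constant per sample and card (tolerance 0.02 cycles), except in 2102Ep siSOX2 replicate 3, where the raw column was out of line by 1 row from row 106 on (0.59% of 339 values at the constant as placed and 99.7% after moving them). For that sample the constant was added back to the dCt to obtain raw Ct. The constant of card B could not be traced to reference RNAs in 2102Ep cells, and no check of it is shown for NTera-2 cells. Values at Ct 40 (24) counted as not measured, 2 assays without raw Ct were filled from the dCt, and 1 row without a name was left out.

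Assays measured in at least 2 of 3 samples of each group compared were fitted in R 4.3.3 with the lmFit and eBayes functions of limma 3.58.1 (4 group means over 12 samples, two-sided), on minus dCt within a line and on minus raw Ct against the card mean between lines. P-values were adjusted by the Benjamini-Hochberg method over all assays tested, with calls at an adjusted p under 0.05. The fit was tested on simulated data. The named assays were all members, their star strands and, for each member, the 3 assays most like it. Alternatives were other references (card mean or median, U6, RNU44 with RNU48, deposited dCt between lines), a limit of Ct 32, Ct 40 for values not measured, the samples of a comparison alone, a trend in eBayes, the unequal-variance test of each assay, a replicate block, and each sample left out. Deviations of NC and siSOX2 samples with the same number correlated by 0.12, 0.26 and 0.16 in NTera-2 and by 0.16, 0.17 and 0.06 in 2102Ep cells. Those with different numbers correlated by -0.22 to 0.05. The main fits did not pair samples by number. Only the alternative with a replicate block did, in both lines. Precision is limited by 3 samples per group, and pre-amplified PCR gives no molecule counts.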

Additional observations from a re-analysis of the deposited data

How the results depend on the processing

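Of 486 alternative values of single assays, 436 kept direction and call, 8 lost a call, 8 gained one and 34 turned sign. Several alternatives, such as the Ct limit, the trend and the replicate block, left the fold change of these assays as it was. Direction could not turn in them. Within a line only miR-30d in 2102Ep was called in the main fit, and no difference was, so most of these kept calls meant staying uncalled. In 2102Ep cells the count of members called, 1, was 0 of the 2 assays that U6 covers. It was 2 with RNU44 and RNU48, where 59 of 432 assays passed. It was 0 with the unequal-variance test of each assay, where 8 of 432 assays passed. In that test 3 of 6 members had an unadjusted p of 0.05 or less, as did 95 of 432 assays. Leaving out any 1 sample left the count at 1. In NTera-2 cells the count stayed 0 in every alternative. For the difference between the lines it was 2 with RNU44 and RNU48, where 41 of 385 assays passed, and 0 to 1 on leaving out a sample. Between the lines it was 5 to 6 in NC and 4 in siSOX2 samples on leaving out a sample. The replicate block changed no call within a line (miR-30d in 2102Ep kept 2.33, adjusted p = 0.024 by limma); among all assays it made 9 calls in NTera-2 cells in place of 25, and 4 in place of 24 for the difference. Between the siSOX2 groups, with numbers across lines as the replicate block, miR-30a-3p passed (1.05, adjusted p = 0.032 by limma). Whether equal numbers correspond across the lines was not tested, and the labels do not say so. Small changes turned sign. In 2102Ep cells, miR-30a-5p was 0.03 with the card median, 0.50 with RNU44 and RNU48, and -0.12 to 0.061 on leaving out a sample, and miR-30c was 0.058 with RNU44 and RNU48. In NTera-2 cells, miR-30a-5p, miR-30e-3p and miR-30d* were 0.30, 0.30 and 0.43 with the card mean and 0.25, 0.25 and 0.39 with the card median; miR-30b and miR-30c were -0.061 and -0.11 with U6, and miR-30c -0.0305 with RNU44 and RNU48. On leaving out a sample there, miR-30c lay between -0.0515 and 0.23, miR-30d between -0.21 and 0.57 and miR-30d* between -0.36 and 0.48. The difference was 0.39 (card mean) and 0.22 (card median) for miR-30a-5p, -0.088 for miR-30c with RNU44 and RNU48, and 0.12 for miR-30e-3p with the card mean. With the deposited dCt, whose constants differ between the lines, NTera-2 minus 2102Ep turned to -6.08, -2.07, -2.15, -5.30 and -6.24 (miR-30a-3p, miR-30b, miR-30c, miR-30d and miR-30e-3p) in NC and to -7.85, -1.52, -1.78, -7.47 and -6.66 in siSOX2 samples. For miR-30a-5p the NC call was lost with only the samples of the comparison in the fit, and the siSOX2 value passed with the card median, at -0.79. For the other changes of sign or call the cause was not tested.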

Other observations

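In the NTera-2 NC samples the Ct of miR-30a-5p minus that of miR-30e-3p was 2.57 with an SD of 0.0015 cycles over 3 samples, whereas in NTera-2 siSOX2 samples the same gap was 2.57 ± 0.12 (SD, n = 3). The pair was singled out among the 7 after its values were seen.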
